A study of Mus musculus with 10 samples.

Results

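The conjugation enzymes of the mouse liver were taken as all genes whose symbol names a UDP-glucuronosyltransferase of families UGT1 to UGT3, a sulfotransferase, a cytosolic glutathione transferase of the alpha, mu, pi, kappa, omega or zeta class, or a microsomal glutathione transferase. The rule reads gene symbols alone, and it was set with earlier results of these data known. It found 70 genes among the 55401 gene identifiers counted, and 41 of them were expressed highly enough to be tested, among 12234 genes tested in all. Their mRNA was compared between the livers of 5 wild-type (WT) samples and 5 samples of littermate mice labelled as liver-specific knockouts of the thyroid hormone receptor beta gene Thrb (Liver-specificTHRBKO, here Thrb hep-/-). The strain was given as C57Bl6/J in the sample titles and as C56Bl6/J in the strain field. The floxed Thrb allele was deleted by Cre under the Afp promoter, so cells of the liver without Afp-Cre history kept the gene. Both groups were fed chow with no treatment, and their sex, age and time of collection are not given in the sources used here. The labels number the samples 1 to 5 within each genotype without saying that each came from its own mouse, so p-values measure the spread between these samples.

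Conjugation makes lipophilic compounds water soluble so that bile or urine can carry them away. UDP-glucuronosyltransferases sit in the endoplasmic reticulum and attach glucuronic acid to bilirubin, steroids, bile acids, thyroid hormones and drugs. Sulfotransferases are cytosolic and transfer sulfate to phenols, hydroxysteroids and bile acids, and glutathione transferases join glutathione to electrophiles such as lipid peroxidation products. Hepatocytes are a main site of these reactions, and thyroid hormone receptors act in hepatocytes as ligand-dependent transcription factors.

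The libraries held between 26477195 and 28590704 counted reads, so that 3 counts corresponded to 0.105 to 0.113 CPM (counted reads on a per-million scale). Thrb itself was at 33.3 ± 0.64 normalized CPM in WT and 26.7 ± 1.93 in Thrb hep-/- libraries (mean ± SD, n = 5 each), and its groups did not overlap. The decrease was small on the log2 scale (-0.32 ± 0.07 SE, adjusted p = 0.0359), counted over the whole gene and not over the deleted part alone. Every adjusted p is from the quasi-likelihood F-test of edgeR, adjusted over all genes tested by the method of Benjamini and Hochberg. Genes were called at an adjusted p of 0.15 and, more strictly, 0.05. Dio1, the deiodinase that is a standard target of THRB, fell from 166 ± 25.5 to 20.3 ± 5.06 normalized CPM (log2 -3.03, adjusted p = 1.26e-05). Of the other known targets listed, Me1 and Hsd17b6 rose (0.79 and 1.84, adjusted p = 0.0652 and 0.0256), and Thrsp and Hectd3 did not pass 0.15 (-1.28 and -0.15, adjusted p = 0.304 and 0.347). The call of Me1 was lost without Thrb hep-/- library 3 (adjusted p = 0.155). Hepatocyte markers gave 0 calls among 7 tested in edgeR, against 4.08% of all genes. In that fit 1 had an unadjusted p below 0.05, and DESeq2 and limma-voom each called 1 of the 7. Genes of the acute-phase response were lower in Thrb hep-/- libraries, with 13 of 21 tested past 0.15, and this moved with several of the results below.

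Several glutathione transferases of the mu and alpha classes were higher in Thrb hep-/- livers, and the sulfotransferase gene Sult2a7 was lower. Of the 41 conjugation genes tested, 6 passed an adjusted p of 0.15, which is 14.6% against 4.08% of all genes tested. Gsta2, Gsta3, Gstm1, Gstm6 and the processed pseudogene Gstm2-ps1 were the 5 that rose, 12.2% of the genes tested against 1.51% of all genes. Sult2a7 was the single gene that fell, 2.44% against 2.57% of all genes. At an adjusted p of 0.05, Gstm6 alone was left, again 2.44% against 1.35%. The lowest library of one genotype lay above the highest of the other in Gstm6 and Gsta3, 4.88% of the genes tested against 3.64% of all.

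Beyond the calls, the fitted changes leaned upward. The fold change was above 0 on the log2 scale in 31 of the 41 genes and below 0 in 10, with a median of 0.16. Over all 12234 genes the split was even, 50.1% above 0, with a median of 0.00054. An unadjusted p below 0.05 was seen in 11 of the 41, 26.8%, against 13.6% of all genes. In the alpha and mu classes, which held all 5 calls that rose, 10 of 11 genes tested were fitted higher with a median of 0.62. Taking these classes together selects those calls, and the 11 include the pseudogene Gstm2-ps1. These are descriptions of the list, which was given no test of its own.

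**Figure D1:**
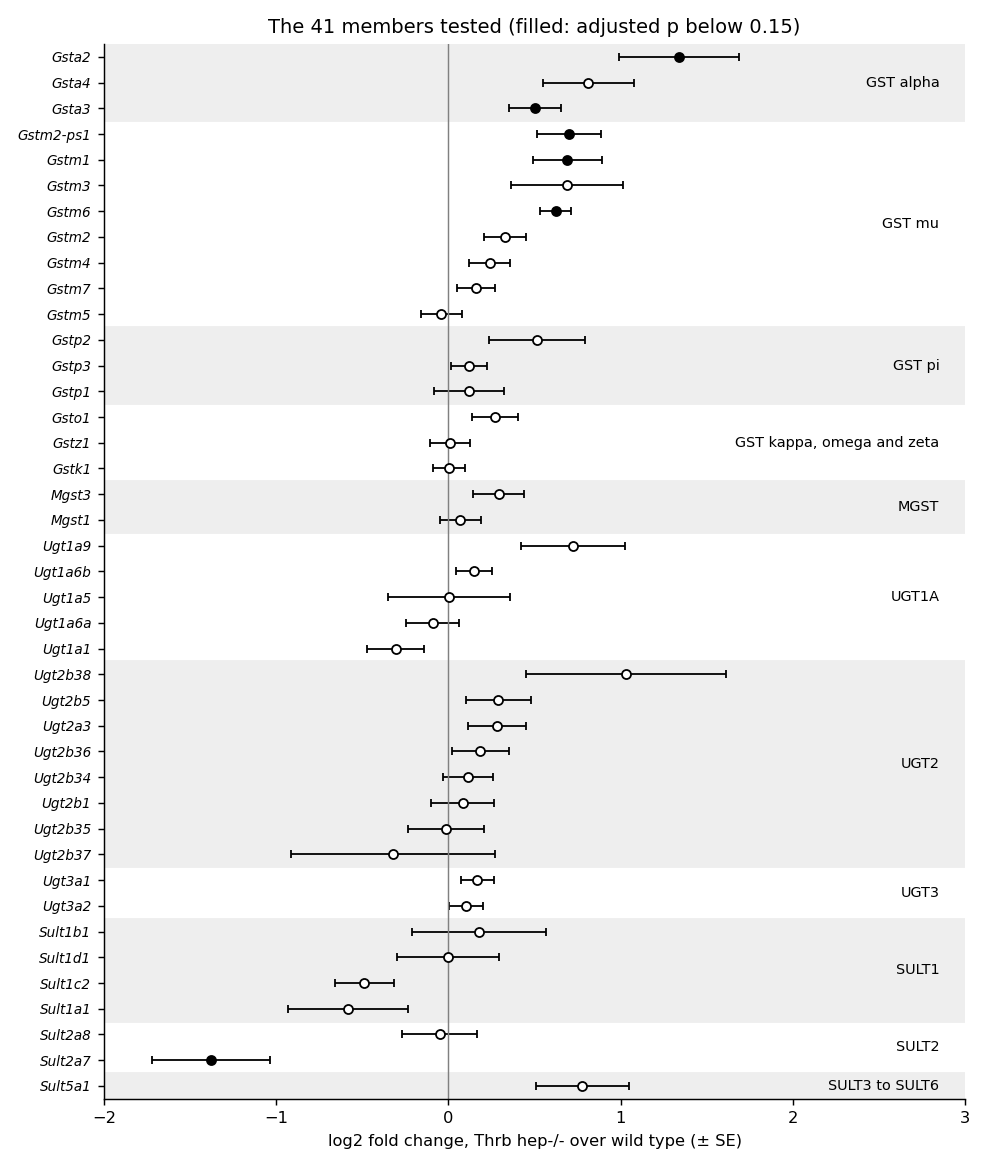
Log2 fold change of Thrb hep-/- over WT livers for the 41 conjugation genes tested, grouped by family, with bars of 1 SE from the edgeR fit (5 libraries per genotype). Filled points passed an adjusted p of 0.15. The alpha and mu classes lie to the right of 0 except Gstm5 at -0.04, Sult2a7 lies farthest to the left at -1.38, and most UGT genes sit near 0.

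The families differed widely in level. Levels between genes are given as normalized CPM per kilobase of exon sequence that belongs to no other gene, because reads on shared exons were not counted. In WT livers Mgst1, a membrane-bound transferase of the endoplasmic reticulum and outer mitochondrial membrane, stood at 1339 ± 65.0 CPM per kilobase, and Gstp1, the pi-class enzyme, at 1235 ± 313. The spread of Gstp1 covered the difference between these 2 genes. Of the 100-base words of Gstp1, 25.1% also occur in other genes, against 0% for Mgst1. Reads that fit several genes were not counted, and the exon length used does not correct for this. The level of Gstp1 may therefore be too low, and the order of these 2 genes cannot be read. Gstm1 followed at 578 ± 122, then Ugt2b5 at 271 ± 36.0 and Ugt2b36 at 257 ± 31.4, whose difference was smaller than their SD. Ugt2b5 shares 24.7% of its 100-base words with other genes and Ugt2b36 0%, so the level of Ugt2b5 may be too low as well. Gsta3 at 220 ± 44.7 and Ugt2b1 at 202 ± 53.0 could likewise not be separated from each other. The highest sulfotransferases were Sult1a1 at 176 ± 62.4 and Sult2a8 at 170 ± 43.6.

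**Figure D2:**
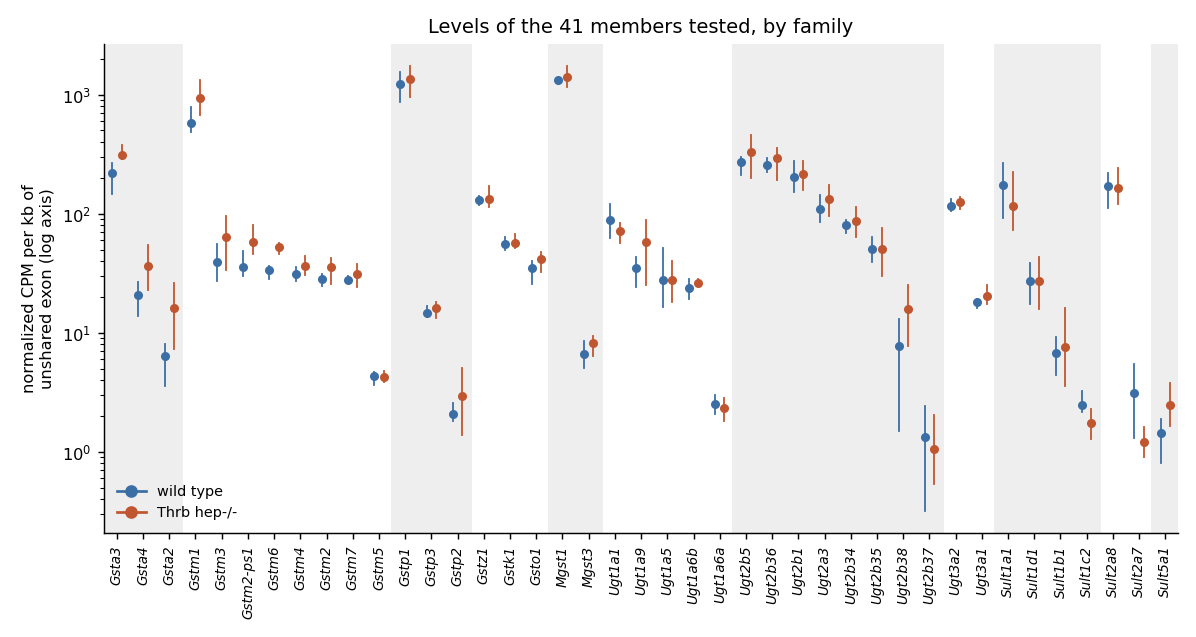
Level of the 41 conjugation genes tested in each genotype, as normalized CPM per kilobase of unshared exon on a log axis. Points are means of 5 libraries and lines run from the lowest to the highest library. The genes span from 1.32 in WT for Ugt2b37 to 1339 in WT for Mgst1.

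All 70 genes together took up 11258 ± 1010 normalized CPM in WT and 12892 ± 1534 in Thrb hep-/- libraries, or 1.13% and 1.29% of the counted reads. Most of the difference lay in the mu class, whose sum went from 1144 ± 203 to 1774 ± 446, and the alpha class, from 989 ± 197 to 1419 ± 155. The alpha sums did not overlap, with a WT maximum of 1178 and a Thrb hep-/- minimum of 1294. The mu sums overlapped, since the highest WT library reached 1493 and the lowest Thrb hep-/- library 1350.2. The UGT2 sums were 2315 ± 291 and 2620 ± 523, and the MGST sums 2703 ± 130 and 2837 ± 469.

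The mu class forms a gene cluster on chromosome 3 of GRCm38, with Gstm5, Gstm7, Gstm6, Gstm3, Gstm2, Gstm1 and Gstm4 in this order between 107895821 and 108044894. All 7 and the unlinked pseudogene passed the filter on low counts. Gstm6 (chr3:107938847-107943749, minus strand) showed the most even difference of the whole set. It was at 68.7, 56.0, 70.6, 73.0 and 67.8 normalized CPM in WT libraries 1 to 5 and at 113, 108, 93.4, 91.8 and 111 in Thrb hep-/- libraries 1 to 5. Every Thrb hep-/- library lay above every WT library, with a gap between 73.0 and 91.8. The change was 1.54-fold (log2 0.62 ± 0.09 SE, adjusted p = 0.0063). It was called whichever single library was left out, at 0.56 to 0.66.

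Gstm1 (chr3:108012255-108017973, minus strand), the mu-class gene with by far the most reads in liver, was at 712, 813, 1158, 839 and 733 normalized CPM in WT and at 1073, 985, 1652, 1953 and 1200.3 in Thrb hep-/- libraries. Libraries 3 and 4 of Thrb hep-/- were the 2 highest, and WT library 3 lay above Thrb hep-/- libraries 1 and 2, so the groups overlapped. The change was 1.61-fold (log2 0.69 ± 0.20, adjusted p = 0.129). The call was lost without any one of Thrb hep-/- libraries 3, 4 and 5 or WT libraries 1, 2, 4 and 5, at adjusted p of 0.157 to 0.29 and log2 values of 0.53 to 0.73.

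Gstm2-ps1 (chr5:116632908-116633564, minus strand) is annotated as a processed pseudogene of 657 bases. Over that length it was identical to the Gstm1 transcript at 643 positions, 97.9%. Gstm3 was identical at 89.8% of 645 aligned bases, and Gstm2, after which it is named, at 86.1% of 638. It was at 21.5, 24.8, 31.7, 19.8 and 20.1 normalized CPM in WT and at 30.3, 30.1, 45.9, 52.8 and 32.7 in Thrb hep-/- libraries, a 1.63-fold change (log2 0.70 ± 0.19, adjusted p = 0.095). The Thrb hep-/- libraries ranked in the same order as for Gstm1, with libraries 4 and 3 highest. WT library 3 was the highest of its genotype for both genes, but the rest of the WT order differed. WT library 4 was below WT library 3 alone for Gstm1, at 839, and the lowest of all for Gstm2-ps1, at 19.8. Of its 100-base words, 12.9% also occur in Gstm1 or Gstm3, and reads of Gstm1 placed on the pseudogene cannot be told apart from transcription of the pseudogene. The call was lost without Thrb hep-/- library 3 or 4 or WT library 1, 2, 4 or 5, at adjusted p of 0.174 to 0.229.

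The other 5 mu genes did not pass 0.15. Gstm3 was at 42.6, 35.7, 72.7, 56.5 and 49.96 normalized CPM in WT and at 44.1, 47.6, 119, 125 and 78.6 in Thrb hep-/- libraries (log2 0.69 ± 0.32, adjusted p = 0.394). Its mean difference was as large as that of Gstm1, but Thrb hep-/- libraries 1 and 2 stayed inside the WT range. Gstm2 had a smaller difference of 0.33 ± 0.12 (adjusted p = 0.252, unadjusted p = 0.0178), with 4 of 5 Thrb hep-/- libraries between 61.0 and 71.3 normalized CPM and the fifth, library 4, at 43.0, inside the WT range of 41.4 to 51.9. Gstm2 was called at 0.43 (adjusted p = 0.0575) when Thrb hep-/- library 4 was left out. Gstm4 and Gstm7 had log2 values of 0.24 and 0.16. Gstm5, the least expressed of the cluster at 4.78 ± 0.50 normalized CPM in WT and 4.65 ± 0.46 in Thrb hep-/- libraries, had the smallest difference of the class, -0.04 ± 0.12.

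**Figure D3:**
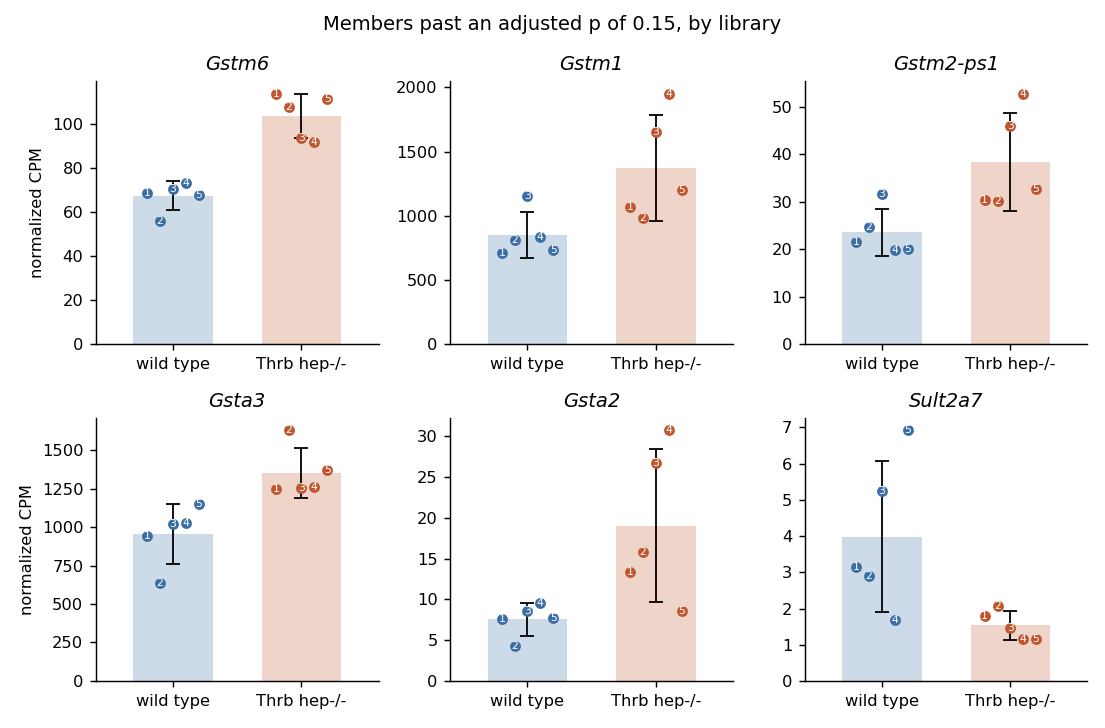
Normalized CPM of the 6 conjugation genes past an adjusted p of 0.15 in each library, with bars at the mean and error bars of 1 SD (5 libraries per genotype, numbers give the library). The groups are apart in Gstm6 and Gsta3. In Gstm1, Gstm2-ps1 and Gsta2, Thrb hep-/- libraries 3 and 4 stand above the other 3.

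In the alpha class, 3 of 4 genes were tested, all 3 were fitted higher, and Gsta2 and Gsta3 passed 0.15. Gsta3 (chr1:21240589-21265661, plus strand), which in mice detoxifies the epoxide of aflatoxin, was at 940.0, 636, 1019, 1029 and 1152 normalized CPM in WT and at 1245, 1630.4, 1255, 1263 and 1375 in Thrb hep-/- libraries. The groups were apart, with WT library 2 lowest and Thrb hep-/- library 2 highest. The change was 1.42-fold (log2 0.50 ± 0.15, adjusted p = 0.139). The call held in 2 of the 10 fits with a library left out, without Thrb hep-/- library 1 or WT library 5. In the other 8 the adjusted p was 0.16 to 0.224 and the log2 value 0.39 to 0.53.

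Gsta2 (chr9:78331018-78355788, minus strand), an inducible alpha-class gene, had the largest rise of the set, 2.53-fold (log2 1.34 ± 0.35, adjusted p = 0.105). It was at 7.53, 4.23, 8.61, 9.53 and 7.75 normalized CPM in WT and at 13.3, 15.8, 26.8, 30.7 and 8.59 in Thrb hep-/- libraries. Thrb hep-/- libraries 3 and 4 were again the 2 highest, and library 5 lay within the WT range. Of the 100-base words of Gsta2, 28.4% occur in other genes, among them Gsta1, so part of its transcript was open to reads that were not counted. The call was lost without Thrb hep-/- library 3 or 4 or WT library 1, 2, 3 or 5, at adjusted p of 0.174 to 0.233 and log2 values of 1.10 to 1.39.

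Gsta4, whose enzyme conjugates the lipid peroxidation product 4-hydroxynonenal, was at 33.5, 20.3, 30.5, 28.8 and 17.7 normalized CPM in WT and at 34.7, 39.5, 57.5, 69.1 and 28.7 in Thrb hep-/- libraries. It did not pass 0.15 (log2 0.81 ± 0.26, adjusted p = 0.196), and Thrb hep-/- library 5 fell within the WT range. DESeq2 and limma-voom called it, at adjusted p of 0.0274 and 0.145. Gsta1 was not tested, since it had 7 to 84 counts per library, and 80.6% of its 100-base words occur elsewhere.

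The DNA before the start site is shown for the 4 protein-coding genes of these classes that rose, to set their promoters side by side. The stretches run from 250 to 31 bases before the RefSeq start nearest to the annotated start of each gene (GRCm38.p6). They lie at chr9:78347176-78347395 (minus strand), chr1:21240335-21240554 (plus strand), chr3:108018004-108018223 (minus strand) and chr3:107943765-107943984 (minus strand), written 5′ to 3′ along each gene. Capitals mark TGACNNNGC, the core of the electrophile response element that the stress factor NFE2L2 binds. The RefSeq start of Gsta2 lies 8643 bases inside the annotated gene.
Gsta2: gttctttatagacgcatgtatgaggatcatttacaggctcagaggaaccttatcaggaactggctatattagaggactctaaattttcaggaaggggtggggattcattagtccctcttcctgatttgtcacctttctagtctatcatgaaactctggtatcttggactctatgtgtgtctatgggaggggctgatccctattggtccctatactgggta
Gsta3: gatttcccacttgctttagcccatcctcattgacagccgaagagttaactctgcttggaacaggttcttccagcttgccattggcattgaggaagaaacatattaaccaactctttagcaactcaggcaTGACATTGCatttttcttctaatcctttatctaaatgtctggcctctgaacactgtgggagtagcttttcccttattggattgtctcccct
Gstm1: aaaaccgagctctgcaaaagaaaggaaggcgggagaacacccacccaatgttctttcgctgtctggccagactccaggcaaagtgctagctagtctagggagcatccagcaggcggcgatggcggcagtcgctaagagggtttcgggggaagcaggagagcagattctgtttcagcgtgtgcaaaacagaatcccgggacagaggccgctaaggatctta
Gstm6: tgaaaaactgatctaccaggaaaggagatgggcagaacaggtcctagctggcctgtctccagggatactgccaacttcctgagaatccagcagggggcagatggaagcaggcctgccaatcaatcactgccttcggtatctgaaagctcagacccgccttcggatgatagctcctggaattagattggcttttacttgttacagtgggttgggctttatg
The core was found once among these 4, in Gsta3, with its first base 121 bases before the start. Searched on both strands in windows from 250 bases before to 50 after a start, it was in 4 of 67 promoters of 56 conjugation genes, 5.97%, against 12.4% of all 32851 promoters. The 4 belonged to Gsta3, Gstm5, Gstm7 and Mgst1, of which Gsta3 rose and the other 3 did not pass the test. The half-site AGGTCA of nuclear receptors was in 12 of the 67, 17.9%, against 16.3% of all. Its direct repeat, 2 copies that are 4 bases apart and that thyroid hormone receptors bind as dimers, was in 0 of the 67 and in 5 of all 32851. A match is a string of letters within these windows, and sites farther away were not searched.

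None of the other glutathione transferases passed 0.15 in edgeR, DESeq2 or limma-voom, 0 of 8 tested in the pi, kappa, omega, zeta and microsomal groups. In edgeR 0 of them had an unadjusted p below 0.05. Of all genes tested, 4.08% passed 0.15 in edgeR, and 0 of 8 cannot be told from that share. Gstp1 was at 2126, 1451, 2253, 2396 and 1336 normalized CPM in WT and at 1465, 1711, 2034, 2501 and 2679 in Thrb hep-/- libraries. The groups overlapped over nearly their whole range (log2 0.12 ± 0.20, adjusted p = 0.865). Gstp2 and Gstp3, its neighbours on chromosome 19, had log2 values of 0.51 ± 0.28 and 0.12 ± 0.10, and Gstp2 shares 46.9% of its 100-base words with other genes. Gstz1, the maleylacetoacetate isomerase of tyrosine breakdown, was at 586 ± 40.7 in WT and 589.5 ± 101 in Thrb hep-/- libraries. Gstk1, found in mitochondria and peroxisomes, was at 82.5 ± 7.55 and 82.7 ± 10.02. Gsto1, which reduces dehydroascorbate, had 70.2 ± 12.6 and 84.8 ± 11.8 (log2 0.27 ± 0.13, adjusted p = 0.403).

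Mgst1 was at 2478, 2792, 2723, 2801 and 2683 normalized CPM in WT and at 2329, 3488, 2565, 2629 and 3129 in Thrb hep-/- libraries. WT libraries were tight, with an SD of 131, while Thrb hep-/- library 1 lay below and libraries 2 and 5 above all of them (log2 0.07 ± 0.12, adjusted p = 0.87). Mgst3 was at 7.34 ± 1.41 and 8.98 ± 1.34 (log2 0.29 ± 0.15, adjusted p = 0.416).

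The UDP-glucuronosyltransferases gave 0 calls among 15 genes tested in edgeR, which cannot be told from the 4.08% called among all genes. The unadjusted p was below 0.05 in 1 of them, while DESeq2 called 1 and limma-voom 0. That gene was Ugt1a9, at 27.5, 21.4, 34.9, 38.4 and 31.7 normalized CPM in WT and at 22.0, 38.4, 62.4, 78.1 and 52.4 in Thrb hep-/- libraries. Thrb hep-/- libraries 3, 4 and 5 lay above all WT libraries, library 2 lay just above the highest of them and library 1 lay within them (log2 0.72 ± 0.30, adjusted p = 0.334). Without library 1 the adjusted p was 0.0724 at a log2 value of 0.91, and DESeq2 gave 0.127. The UGT1A enzymes share all exons but the first, so their counts rest on the 385 to 2142 bases that each gene has to itself.

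Ugt1a1, the bilirubin transferase, went the other way, at 46.7, 23.9, 32.0, 35.0 and 32.0 normalized CPM in WT and at 22.0, 32.4, 29.7, 30.02 and 22.9 in Thrb hep-/- libraries. WT library 1 was high and the rest of the groups overlapped (log2 -0.31 ± 0.17, adjusted p = 0.452). Ugt1a5 was at 24.7 ± 12.8 and 24.8 ± 8.98, with a log2 value of 0.01 ± 0.35. Ugt1a6a and Ugt1a6b, which take planar phenols, had log2 values of -0.09 and 0.15.

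The UGT2 genes, which handle steroids, bile acids and many drugs, hold the most reads of the glucuronidation genes, and 0 of 8 were called by edgeR, DESeq2 or limma-voom, with 0 at an unadjusted p below 0.05. Ugt2b5 was at 500.3, 554, 517, 554 and 391 normalized CPM in WT and at 374, 629.7, 714, 845 and 512 in Thrb hep-/- libraries (log2 0.29 ± 0.19, adjusted p = 0.552). Its 3 highest values were all in Thrb hep-/- and its lowest was too. Ugt2b36 and Ugt2b1 had log2 values of 0.18 ± 0.17 and 0.08 ± 0.19. Ugt2b38 had the widest spread of all conjugation genes tested, 17.1-fold between its lowest and highest library, and a log2 value of 1.03 ± 0.58 (adjusted p = 0.483). In the UGT3 pair, whose enzymes use other sugars than glucuronic acid, Ugt3a2 was at 363 ± 36.1 and 389 ± 36.6 and Ugt3a1 at 48.0 ± 3.205 and 53.9 ± 7.85.

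Among the sulfotransferases, 7 of 27 genes passed the filter on low counts. Sult2a7 (chr7:14465051-14494230, minus strand), a low-level relative of the hydroxysteroid and bile acid sulfotransferases, was at 3.14, 2.902, 5.25, 1.68 and 6.92 normalized CPM in WT and at 1.81, 2.06, 1.48, 1.16 and 1.17 in Thrb hep-/- libraries. The groups overlapped through WT library 4, which lay within the Thrb hep-/- range, and counts ran from 33 to 185 per library. The decrease was 2.60-fold (log2 -1.38 ± 0.34, adjusted p = 0.0788). The call was lost without Thrb hep-/- library 3, 4 or 5 or WT library 5, at adjusted p of 0.154 to 0.185 and log2 values of -1.36 to -1.08. In the fit with the replicate number as a block it was -1.25 (adjusted p = 0.155).

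Sult2a8, which lies nearby on chromosome 7 and is by far the most expressed of its family, showed no such shift. It was at 715, 365, 540.2, 681 and 491 normalized CPM in WT and at 490.3, 789.8, 396, 415 and 602 in Thrb hep-/- libraries. Both groups ran over the same range (log2 -0.05 ± 0.22, adjusted p = 0.95). The other 11 SULT2 genes and pseudogenes, the classical Sult2a1 to Sult2a6 among them, had at most 4 counts in any library.

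Sult1a1, the phenol sulfotransferase, was at 263, 134, 221, 267 and 384 normalized CPM in WT and at 163, 322, 145, 105 and 112 in Thrb hep-/- libraries. Library 2 of Thrb hep-/- stood far above the other 4 of its genotype (log2 -0.58 ± 0.35, adjusted p = 0.513). Without that library the log2 value was -0.95 and the adjusted p 0.133. Sult1b1, which sulfates thyroid hormones among other phenols, had the same library on top, at 44.5 against 9.96 to 20.8 in the other 4, and a log2 value of 0.18 ± 0.39. Sult1d1 was at 67.0 ± 23.1 and 66.9 ± 25.5.

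Sult1c2 and Sult5a1 had an unadjusted p below 0.05 and did not pass 0.15. Sult1c2 was at 6.02, 4.37, 4.04, 4.30 and 4.004 normalized CPM in WT and at 3.27, 4.20, 3.33, 2.38 and 3.04 in Thrb hep-/- libraries (log2 -0.49 ± 0.17, adjusted p = 0.218). Only library 2 of Thrb hep-/- reached the WT range. Without it the adjusted p was 0.112, and DESeq2 and limma-voom called the gene, at 0.126 and 0.108. Sult5a1 was at 5.94, 3.53, 6.26, 8.401 and 7.82 in WT and at 16.6, 12.97, 7.31, 7.48 and 10.3 in Thrb hep-/- libraries (log2 0.78 ± 0.27, adjusted p = 0.228), and DESeq2 called it at 0.0708.

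Single libraries stood out repeatedly across the set. Thrb hep-/- library 2 was the highest of its genotype in 18 of the 41 genes tested, 43.9%, against 27.4% of all genes. Library 1 was the lowest in 18, against 23.9% of all genes, and library 4 the highest in 15, 36.6%, against 19.1%. Among WT libraries, library 2 was the lowest in 14, 34.1%, against 18%. The genes of one library share its RNA and its scaling, so these counts describe libraries and not independent genes.

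Acute-phase genes differed between the genotypes and among the libraries. The mean log2 CPM of 21 acute-phase genes, plasma proteins such as Saa1, Saa2, Hp and Orm1 that hepatocytes make in inflammation, was 9.25, 9.99, 8.36, 8.80 and 9.61 in WT and 7.72, 8.22, 7.15, 6.99 and 7.72 in Thrb hep-/- libraries. The groups did not overlap, and all 21 genes were fitted lower in Thrb hep-/- livers. Thrb hep-/- libraries 3 and 4 had the lowest acute-phase means and the 2 highest values of Gstm1, Gstm2-ps1, Gstm3, Gsta2, Gsta4 and Ugt1a9. WT library 3, with the lowest acute-phase mean of its genotype, was the highest WT library for Gstm1, Gstm2-ps1 and Gstm3, while the highest WT library was library 4 for Gsta2 and Ugt1a9 and library 1 for Gsta4. Among Thrb hep-/- libraries Gstm6 did not follow this order, since libraries 3 and 4 were its 2 lowest of the genotype. Gsta3 and Mgst1 did not follow it there either. Both were highest in Thrb hep-/- library 2, which had the highest acute-phase mean of its genotype. Within WT, Gstm6 was highest in libraries 4 and 3, those with the lowest acute-phase means, at 73.0 and 70.6 normalized CPM. It was lowest in WT library 2, with the highest acute-phase mean, at 56.0. Among WT libraries Gsta3 was highest in library 5, at 1152 normalized CPM and an acute-phase mean of 9.61. It was lowest in library 2, at 636 and the highest acute-phase mean of 9.99. WT libraries 3 and 4, with the lowest acute-phase means, were at 1019 and 1029.

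**Figure D4:**
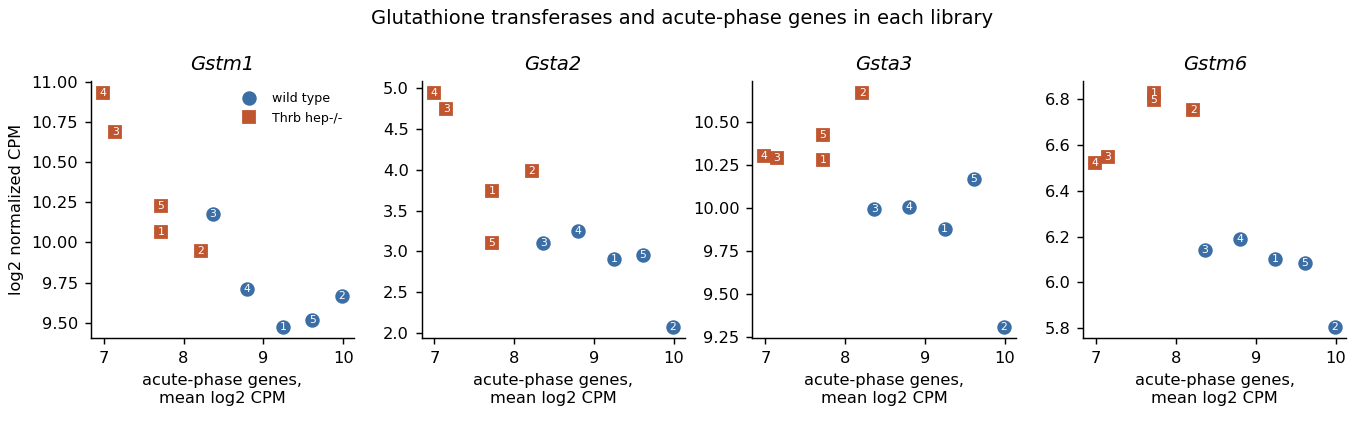
Log2 normalized CPM of Gstm1, Gsta2, Gsta3 and Gstm6 against the mean log2 CPM of 21 acute-phase genes in each of the 10 libraries (circles WT, squares Thrb hep-/-, numbers give the library). Gstm1 and Gsta2 are highest in Thrb hep-/- libraries 3 and 4, at acute-phase means of 7.15 and 6.99, while Gstm6 is higher in each Thrb hep-/- library than in each WT library.

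With the acute-phase mean as a covariate, 0 of the 41 conjugation genes passed 0.15 in edgeR, 3 had an unadjusted p below 0.05, and 8 genes passed in the whole table. That covariate and the genotype were correlated at -0.85 over the 10 libraries, so the effects of genotype and acute-phase state cannot be told apart here. The log2 value of Gstm1 went to -0.16 and that of Gsta2 to 0.06 in this fit, while Gstm6 stayed at 0.58, Gsta3 at 0.44 and Sult2a7 at -1.07, all at an adjusted p of 0.997. Leaving out Thrb hep-/- libraries 3 and 4 left 2 calls, Gstm6 at 0.72 (adjusted p = 0.0147) and Gstm2 at 0.44 (adjusted p = 0.13). Leaving out WT libraries 2 and 5, those with the highest acute-phase means, left Gstm6 alone, at 0.55 (adjusted p = 0.0549).

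Markers of other cells of the liver were also compared, since fewer cells of a type and less RNA per cell cannot be told apart in whole tissue. Cholangiocyte, Kupffer cell and leukocyte, endothelial, erythroid and exocrine pancreas lists gave 0 calls in edgeR among 18 genes tested, against 4.08% of all genes. The unadjusted p was below 0.05 in 7 of these 18, a larger share than the 13.6% of all genes. DESeq2 and limma-voom each called 2, both endothelial, 1 higher and 1 lower in Thrb hep-/- livers. Of the 6 endothelial markers tested, 3 were fitted higher and 3 lower. Summed cholangiocyte markers ran from 24.8 to 47.0 normalized CPM in WT and from 24.3 to 29.3 in Thrb hep-/- libraries, with Krt19, Krt7 and Cldn7 below the filter. The 3 cholangiocyte markers tested were all fitted lower in Thrb hep-/- livers, Sox9 at -0.50 (adjusted p = 0.352), Spp1 at -0.42 (adjusted p = 0.32) and Epcam close to 0. Summed Kupffer cell and leukocyte markers ran from 79.8 to 271 and from 91.8 to 194. The 5 of them tested were all fitted lower as well, with a median log2 value of -0.68, among them Adgre1 at -0.83 (adjusted p = 0.365) and Ptprc at -0.55 (adjusted p = 0.271). Of the 8 genes tested in both lists, Sox9, Spp1, Adgre1 and Ptprc had an unadjusted p below 0.05. The neutrophil gene S100a8 was lower (log2 -2.67, adjusted p = 0.134), and the stellate cell gene Des higher (0.67, adjusted p = 0.0574). S100a8 was the only 1 of 5 neutrophil markers that could be tested. Its call held in 3 of the 10 fits with a library left out, with adjusted p up to 0.288, and that of Des in all 10. All 6 stellate cell markers tested were fitted higher, with a median log2 value of 0.26. Their part in the differences of the conjugation genes was not tested. The 4 Y-linked genes checked were at 1 CPM or more in each of the 10 libraries, and Xist was at most 0.187 normalized CPM. All 10 libraries thus read as male, which the labels do not state.

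The genes that feed, carry and undo conjugation were read from fixed lists. Of all genes tested, 4.08% were called, and in lists this short 0 or 1 call cannot be told from that share. Supply of UDP-glucuronic acid gave 0 calls of 7 in edgeR, with 2 at an unadjusted p below 0.05 and 1 called by each of DESeq2 and limma-voom. Those 2 were Ugp2, which makes UDP-glucose, with a log2 value of 0.48 (adjusted p = 0.213), and Pgm2, with -0.29 (adjusted p = 0.342). Sulfate supply and activation gave 1 call of 9, Tpst2, which sulfates tyrosines of secreted proteins and not small molecules. Tpst2 was at 41.02, 42.0, 34.8, 31.5 and 36.0 normalized CPM in WT and at 26.1, 26.2, 24.4, 26.8 and 25.6 in Thrb hep-/- libraries, with no overlap (log2 -0.52 ± 0.08, adjusted p = 0.0101). It was called whichever library was left out, and not in the fit with the acute-phase covariate, in which none of these lists had a call.

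Glutathione synthesis and recycling gave 1 call of 12, Ggct, which breaks down gamma-glutamyl dipeptides. Ggct fell from 7.06 ± 0.76 to 4.98 ± 0.83 normalized CPM (log2 -0.50 ± 0.13, adjusted p = 0.0925), with no overlap. Gclc, the catalytic subunit of the rate-limiting step of glutathione synthesis, was at 175, 173, 168, 127 and 87.2 in WT and at 202, 131, 226, 253 and 166 in Thrb hep-/- libraries. Its 2 highest libraries were Thrb hep-/- 3 and 4, and it did not pass 0.15 (log2 0.42 ± 0.22, adjusted p = 0.429). Gclm, Gss and Gsr had log2 values of 0.12, 0.07 and 0.21.

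Hydrolysis and transport gave 1 call each. Ces1d, a carboxylesterase of the endoplasmic reticulum, was at 307, 123.3, 349, 391 and 329 normalized CPM in WT and at 461, 617, 541, 655 and 586 in Thrb hep-/- libraries (log2 0.93 ± 0.25, adjusted p = 0.102). Its groups were apart, with WT library 2 far below the rest. Ces1d is an esterase and neither a glucuronidase nor a sulfatase. Gusb, Arsa, Arsb and Ces2a of the same list did not pass 0.15 in edgeR. Their log2 values were -0.15, 0.42, -0.01 and 0.67 (adjusted p = 0.599, 0.159, 0.982 and 0.225). DESeq2 and limma-voom each called 3 of the 5 genes in this list. Abcc3, which exports glucuronides across the basolateral membrane into blood, was at 154, 92.0, 149, 161 and 84.3 in WT and at 293, 256, 161, 196 and 231 in Thrb hep-/- libraries (log2 0.83 ± 0.21, adjusted p = 0.0903). Thrb hep-/- library 3 lay just under WT library 4, and the other 4 Thrb hep-/- libraries lay above all WT libraries. The call of Abcc3 was lost without Thrb hep-/- library 5 or WT library 2 or 5, at adjusted p of 0.154 to 0.192.

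Transferases that the choice by name leaves out gave 4 calls of 17, against 4.08% of all genes tested, namely Gstt1, Gstt2, Glyat and Nnmt. Gstt1, of the theta class of glutathione transferases, was at 206, 133, 152, 186 and 221 normalized CPM in WT and at 248.9, 294, 298, 282 and 219.8 in Thrb hep-/- libraries (log2 0.58 ± 0.14, adjusted p = 0.0699). Library 5 of Thrb hep-/- alone lay within the WT range. Gstt2 rose 0.78 ± 0.21 (adjusted p = 0.108) and Glyat, which conjugates glycine, 0.36 ± 0.10 (adjusted p = 0.0932). Nnmt, which methylates nicotinamide, fell from 189 ± 51.3 to 101.7 ± 37.3 normalized CPM (log2 -0.90 ± 0.26, adjusted p = 0.135).

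With a library left out, the call of Gstt1 was lost without Thrb hep-/- library 3 alone (adjusted p = 0.174). Those of Ces1d, Ggct, Gstt2, Glyat and Nnmt held in 2 to 4 of the 10 such fits, and all 5 were lost without Thrb hep-/- library 3, Thrb hep-/- library 4, WT library 1 or WT library 5. The highest adjusted p of these fits was 0.204 for Ces1d, 0.197 for Ggct, 0.244 for Gstt2, 0.23 for Glyat and 0.288 for Nnmt. Without Thrb hep-/- library 5 the calls of Ces1d, Ggct, Glyat and Nnmt were lost, and without WT library 2 those of Gstt2, Glyat and Nnmt. Gstt2 and Nnmt were lost without Thrb hep-/- library 1, Ces1d and Gstt2 without Thrb hep-/- library 2, Gstt2 without WT library 3, and Ggct without WT library 4.

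**Figure D5:**
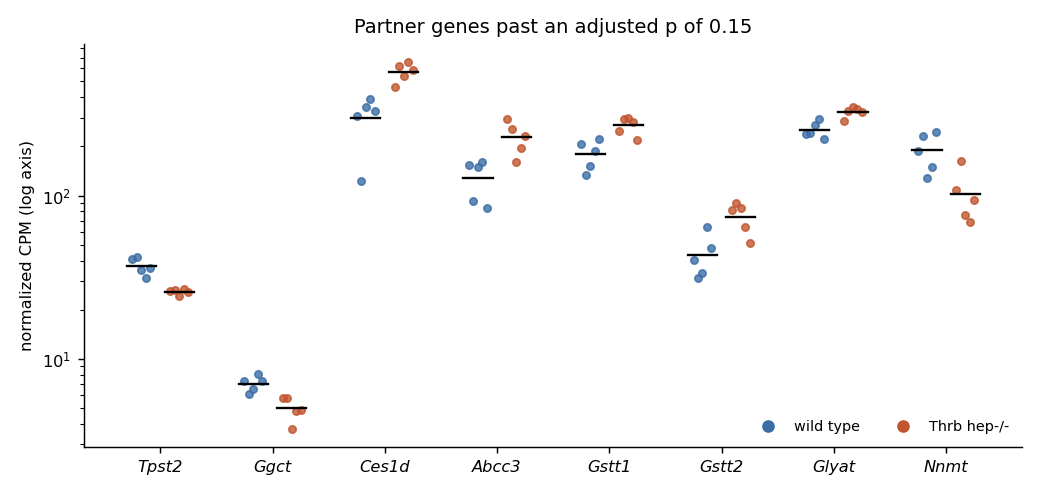
Normalized CPM (log axis) of the 8 genes of the partner lists past an adjusted p of 0.15, with 1 point per library and a line at the mean of 5. Tpst2, Ggct and Ces1d have no overlap between WT and Thrb hep-/- libraries, and Abcc3 overlaps by 1 library at 161.

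The list of 16 factors that regulate conjugation genes gave 0 calls in edgeR, against 4.08% of all genes. DESeq2 and limma-voom each called 1, and in edgeR 2 had an unadjusted p below 0.05. Those 2 were Ahr, the aryl hydrocarbon receptor, with a log2 value of -0.35 (adjusted p = 0.213), and Ppara, the fatty acid receptor, with 0.20 (adjusted p = 0.364). Nfe2l2, which drives many glutathione transferases under oxidative stress, was at 61.9 ± 8.51 and 61.7 ± 4.60 normalized CPM. Nr1i3, the receptor CAR that induces Gsta, Ugt and Sult genes, was at 20.3, 11.0, 15.6, 24.9 and 19.7 in WT and at 28.2, 44.5, 18.3, 18.2 and 19.1 in Thrb hep-/- libraries (log2 0.49 ± 0.29, adjusted p = 0.514). Thrb hep-/- library 2 was the highest of the 10 libraries for Sult1b1, Mgst1, Gsta3 and Nr1i3, and the highest of its genotype for Sult1a1. Nr1i2 and Hnf4a had log2 values of 0.19 and 0.05.

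The 29 conjugation genes that were not tested stayed below 1 CPM in at least 6 of the 10 libraries. Of these, 15 had no count in any library, 5 more had at most 3 in each, and no direction can be read for either. Those without a count include Ugt2a1 and Ugt2a2, Sult1c1, Sult3a2 and Sult6b2. Ugt2a1 and Ugt2a2 have only 30 and 140 bases of exon to themselves, and 94.9% and 93.5% of their 100-base words occur in other genes. Reads on shared exons were not counted, so the lack of counts does not show that Ugt2a1 and Ugt2a2 are silent. Sult1e1, the oestrogen sulfotransferase, had 2 to 6 counts per library, or 0.13 ± 0.06 normalized CPM in WT and 0.12 ± 0.06 in Thrb hep-/- libraries, so a difference was not detectable at this depth. Ugt1a7c and Ugt1a10 had at most 16 and 19 counts per library.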

How the data were processed

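Liver mRNA of 5 WT and 5 Thrb hep-/- samples was sequenced by the authors as DNBSEQ stranded mRNA libraries. Per the labels and the study's methods, reads were mapped with HISAT2 2.2.1 to mm10 (GRCm38) and counted by gene with HTSeq 0.9.1 in union mode, without strand and at a minimum alignment quality of 10. The deposited counts are raw. Reads that fit several places or genes were not counted, which lowers near-identical copies and genes with shared exons, and antisense overlaps cannot be told apart without strand. A second deposited table holds the authors' own comparison of the genotypes (F statistics, fold changes, mean expression, p and FDR) and was not used.

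Symbols and exon lengths came from GENCODE M21 on GRCm38 and promoters from RefSeq on GRCm38.p6. 260 identifiers, 6 of them tested, had no symbol in M21. Genes that reached 1 CPM in 5 or more libraries, the filter of the study's methods, were fitted with edgeR 4.0.16 in R 4.3.3 (TMM, robust quasi-likelihood F-test, genotype alone, all 10 libraries), and p-values were Benjamini-Hochberg adjusted over all genes tested and called at 0.15, the level of the study's methods. The script was tested on simulated data. SE is the absolute log2 fold change over the square root of F. Normalized CPM is CPM on TMM-scaled library sizes. Alternatives were DESeq2 1.42.0, limma-voom (limma 3.58.1), other scalings and filters, covariates for acute-phase and clock genes, a replicate block, and each library left out. No 2 libraries were duplicates.

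The conjugation genes and lists were chosen with earlier results of these data known. Genes named were those past 0.15 (the partner lists included), those with an unadjusted p below 0.05 or groups apart, the 3 highest of each family by CPM per kilobase, the smallest change in each family with a call, and Thrb and its listed targets. Others are named after their values were seen, as examples of their family or list.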

Additional observations from a re-analysis of the deposited data

Results flagged for a closer look

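In groups of 5 libraries, the gap between an extreme library and its nearest neighbour was divided by the group's range, and a ratio above Dixon's critical value of 0.71 was marked. Of 68 groups, 5 were marked, against 3.4 that chance would give at 1 in 20. WT library 3 was high for Gstm1, at 1158 normalized CPM against 712 to 839 in the other 4. Thrb hep-/- library 2 was high for Sult1a1, at 322 against 105 to 163, and for Ugt3a1, at 67.4 against 46.9 to 52.6. WT library 1 was high for Sult1c2, at 6.02 against 4.004 to 4.37. Thrb hep-/- library 2 held 27779196 counted reads in all, below the other 4 of its genotype with 28441288 to 28590704.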

How the results depend on the processing

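Gstm6 kept its direction in all 21 alternatives, between 0.55 and 0.72 on the log2 scale, and its call in 20. The number of conjugation genes past 0.15, 6 as reported, was 10 in DESeq2 with 7 past 0.05, 8 in limma-voom with 3 past 0.05, 3 with no filter on low counts, 2 with a clock covariate and 0 with the acute-phase covariate, where 0 also passed 0.05 and 3 had an unadjusted p below 0.05. It was 1 without WT libraries 2 and 5 (0 past 0.05, 9 at an unadjusted p below 0.05) and 2 without Thrb hep-/- libraries 3 and 4, pairs chosen after seeing the data. With 1 library left out it ran from 1 to 7, and past 0.05 from 1 to 2. The lowest count, 1, came without Thrb hep-/- library 3, and 2 without Thrb hep-/- library 4 or WT library 1, 2 or 5. Over all genes, 499 calls became 885 in DESeq2, 849 in limma-voom, 8 with the acute-phase covariate, 106 without WT libraries 2 and 5, 129 without Thrb hep-/- libraries 3 and 4, and 229 to 684 with 1 library left out. The 8 calls of the partner lists became 13 in DESeq2, 13 in limma-voom, 4 with the clock covariate, 4 with the replicate block, 0 with the acute-phase covariate (among all 77 tested), 2 under either pair left out and 2 to 11 with 1 library left out. The median of the conjugation genes went from 0.16 to 0.051 with the acute-phase covariate and ran from 0.13 to 0.22 with 1 library left out. Thrb kept its direction, at -0.34 with the acute-phase covariate (adjusted p = 0.997), -0.31 without WT libraries 2 and 5 (adjusted p = 0.287) and -0.35 to -0.29 with 1 library left out.

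The replicate numbers did not pair the libraries, with correlations of same-numbered deviations from -0.20 to 0.0091. With the number as a block 6 conjugation genes were called, 4 of them among the 6 reported, and Gsta4 (adjusted p = 0.0729) and Gstm3 (adjusted p = 0.117) took the place of Gsta3 (adjusted p = 0.273) and Sult2a7 (adjusted p = 0.155).

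Signs turned in genes that were far from any call or under the acute-phase covariate. With that covariate the log2 values were -0.16 for Gsta4, -0.16 for Gstm1, -0.71 for Gstm3, 0.28 for Gstm5, -0.11 for Gsto1, -0.59 for Gstp1, -0.13 for Gstp2, 0.041 for Sult1a1, 0.76 for Sult1d1, 0.11 for Sult2a8, -0.028 for Ugt1a5, -0.32 for Ugt1a9, -0.21 for Ugt2b1 and -0.089 for Ugt2b5. Without Thrb hep-/- libraries 3 and 4 they were 0.017 for Gstm5, 0.047 for Sult1d1, 0.17 for Sult2a8, -0.16 for Ugt1a5 and -0.0052 for Ugt2b36, and without WT libraries 2 and 5 they were 0.038 for Gstm5, -0.12 for Gstp1, -0.0041 for Gstz1, 0.11 for Sult1d1 and -0.14 for Ugt2b1. The clock covariate gave 0.0037 for Gstm5, 0.21 for Sult1d1 and 0.012 for Sult2a8. Limma-voom gave -0.036 for Gstk1, -0.054 for Gstz1, -0.093 for Sult1b1 and 0.024 for Sult1d1, which was also 0.0016 in DESeq2 and 0.0015 with DESeq2-style size factors. Gstk1 was -0.0036 with no filter and -0.00016 with the block, and Gstz1 -0.0036 with the block. With 1 library left out the ranges that crossed 0 were -0.069 to 0.053 for Gstk1, -0.091 to 0.061 for Gstz1, -0.012 to 0.13 for Mgst1, -0.28 to 0.36 for Sult1b1, -0.22 to 0.16 for Sult1d1, -0.23 to 0.055 for Sult2a8, -0.16 to 0.35 for Ugt1a5 and -0.029 to 0.23 for Ugt2b1. The cause was not tested. At this depth 20 of the 70 genes had at most 3 counts in each library and allow no comparison.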
